A study of Mus musculus with 14 samples.

Results

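The genes described here handle retinoic acid or respond to it: the carrier Rbp4, the binding proteins Crabp1 and Crabp2, the enzymes Dhrs9, Rdh10 and Cyp26b1, and the receptors Rara, Rarb and Rarg. They were chosen by gene symbol, with earlier results of these data known, and are 9 of the 55291 genes counted by bulk RNA-Seq in mouse esophagus. All mice were C57BL/6, and no allele or treatment is given for any of them. Aged mice were labelled as 18 months or older and young mice as 4 months or younger. Peeled epithelium was sequenced from 5 aged mice (O1, O2, O3, OF5 and OM8) and 4 young mice (Y1, Y3, YF5 and YM4). Tissue labelled stroma was sequenced from 3 of the aged (O1, O2, O3) and 2 of the young mice (Y1, Y3). The paper describes removing the muscle layer with forceps to obtain the epithelium-enriched layer.

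Retinoic acid is made from vitamin A in steps that each have their own proteins. Retinol travels in blood on Rbp4, retinol dehydrogenases oxidize it to retinal, and Aldh1a enzymes oxidize retinal to retinoic acid. Inside the cell Crabp proteins bind the acid, Cyp26 enzymes remove it, and the receptors RARα, RARβ and RARγ, paired with RXR partners, switch genes on or off from sites in DNA. In stratified squamous epithelia such as epidermis and esophagus, vitamin A status is known to govern how keratinocytes differentiate.

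RARs paired with RXRs bind direct repeats of a 6-base half-site, and a repeat with a 5-base spacer, DR5, is their classical site. RefSeq start-site windows (GRCm38.p6, 250 bases before to 50 after each start) were found by symbol for 7 of the 9 genes and for 43 of 59 genes once 50 other retinoid pathway genes were added. The half-site was searched on both strands as the consensus AGGTCA, as the variant GGGTCA, as the variant AGTTCA and as the variant GGTTCA, with spacers of 1, 2 or 5 bases. The 3 matches found among these 43 genes are shown with 6 bases on each side, on the gene's strand, and capitals mark the half-sites.
Rarb, DR5, chr14:16575507-16575535, minus strand: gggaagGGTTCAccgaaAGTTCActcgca
Cyp26a1, DR5 on the opposite strand, chr19:37697770-37697798, plus strand: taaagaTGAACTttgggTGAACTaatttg
Bco1, spacer of 1 base (DR1), opposite strand, chr8:117095803-117095827, plus strand: gggaacTGACCTtTGACCTaacaca
The Rarb repeat lay 53 to 37 bases before the RefSeq start and within the first, untranslated exon of the longer GENCODE transcripts Rarb-201 and Rarb-207. The Cyp26a1 repeat lay 32 to 16 bases before the start of that gene, which encodes another retinoic acid hydroxylase, in no annotated exon. DR5 repeats of these letters were in 0.115% of the 27025 genes with a window, DR1 in 0.263%, and a single half-site in 46.9%. Among the 7 genes with a window, Rarb alone had a direct repeat, and 5 had at least 1 half-site. These matches describe letters only, and no binding was measured.

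Total counts ran from 8217516 to 21867101 per sample. Counts of protein-coding genes ran from 6665526 to 11067320 in 10 samples but only from 1042394 to 1433857 in the epithelial samples of mice OF5, OM8, YF5, YM4, in which 63.9 to 73.9% of all counts fell on a single ribosomal RNA gene. These 4 mice are the ones whose code has 2 letters, and they have no stroma here. Values below are normalized counts, which are CPM values on library sizes adjusted by TMM over the 14 samples, and 3 counts correspond to 0.0872 to 1.25 of them. The keratinocyte list (9 genes, Krt5, Krt13 and others) had a summed level of 17482 to 54743 normalized counts in the epithelial samples and of 48.0 to 462 in the stromal ones. The skeletal muscle list (9 genes, Acta1, Ckm and others) summed to 35647 to 66126 in stroma and 15.5 to 1383 in epithelium. In stroma it had the highest sum of the 10 marker lists. By these lists the epithelial samples carried keratinocyte markers, and the samples labelled stroma carried mainly skeletal muscle markers. Higher in stroma therefore means higher in tissue that includes muscle. Other lists, that of fibroblasts among them, overlapped between the layers. The fibroblast list (6 genes, Col1a1, Dcn and others) summed to 280 to 632 in epithelium and 415 to 1031 in stroma. The smooth muscle list (5 genes, Acta2, Myh11 and others) summed to 333 to 835 and 303 to 2051. Epithelial samples thus held markers of other tissue as well, and its part in the layer differences was not tested. The keratinocyte sum was 17482 to 28306 in the 4 mice with 2 letters and 42163 to 54743 in the other 5 epithelial samples.

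Between the layers, Crabp2, Dhrs9, Cyp26b1 and Rarg were higher in epithelium and Rbp4, Rarb and Rara were higher in stroma. Of the 9 genes, 8 passed the filter on low counts, and Crabp1 did not. With edgeR's quasi-likelihood test and an adjusted p-value threshold of 0.05, 4 of the 8 were called higher in epithelium, beside 26.1% of all 16791 genes tested, and 3 were called higher in stroma, beside 30.1%. In all, 56.2% of genes were called between the layers, so a call alone does not set a gene apart, and the sizes of the differences are given below. The median log2 difference, epithelium minus stroma, was 1.56 over the 8 and -0.051 over all genes tested. Because the 8 lay on both sides of 0, this median is not a shift that they share. They were chosen with earlier results of these data known, so setting them beside all genes is no independent test. In 6 of the 8 genes no epithelial sample overlapped a stromal one, beside 31.3% of all genes tested. In bulk tissue, fewer cells that express a gene and less of its RNA per cell cannot be told apart.

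**Figure D1:**
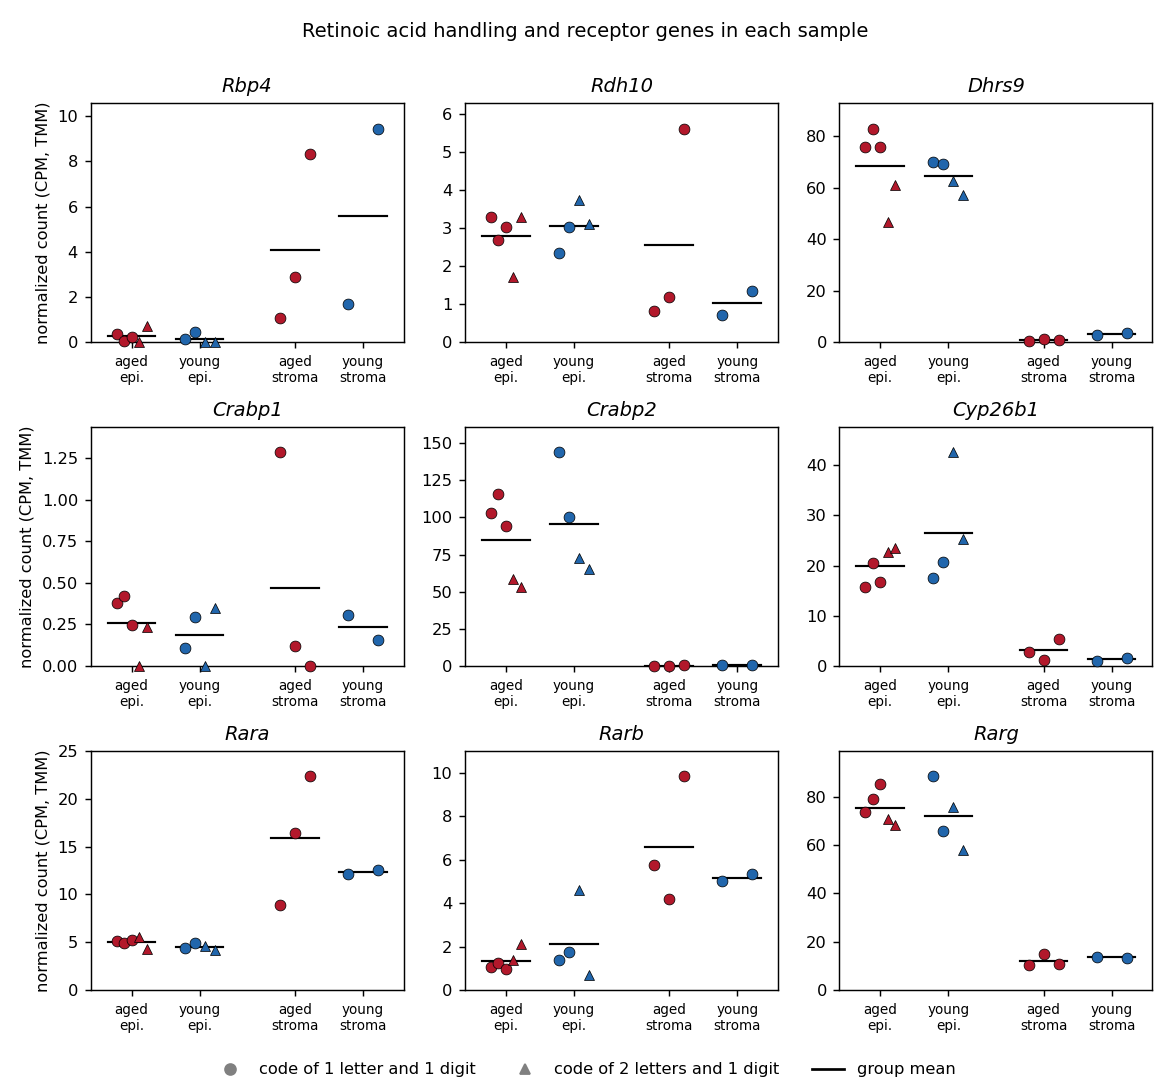
Normalized count (CPM on TMM-adjusted library sizes, linear axis from 0, scaled separately for each gene) of the 9 genes in every sample. Red points are aged and blue points young mice, circles are mice with 1 letter and 1 digit in the code, triangles are mice with 2 letters and 1 digit, and lines are group means. Crabp2, Dhrs9 and Rarg stand far higher in epithelium, and Rara and Rbp4 higher in stroma, with aged and young points intermixed in epithelium.

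Rbp4 (chr19:38116629-38125281), the retinol carrier, was nearly absent from epithelium. Its normalized count there had a lowest value of 0, a median of 0.142 and a highest value of 0.707 (n = 9), from 0 to 14 counts per sample. In stroma it was 1.05 in O1, 2.88 in O2, 8.34 in O3, 1.70 in Y1 and 9.46 in Y3. The layers did not overlap, and the 2 highest stromal samples were 1 aged and 1 young mouse. The log2 difference was -4.21 (SE 0.62, adjusted p = 8.67e-06). Rbp4 is also made by adipocytes, and the adipocyte list (7 genes, Adipoq and others) summed to 280 in O1, 238 in O2, 381 in O3, 295 in Y1 and 735 in Y3, against 2.60 to 7.92 in epithelium. O3 and Y3, the samples highest in Rbp4, were also the 2 highest in that sum. They were the 2 highest stromal samples in the endothelium list (99.8 and 78.2) and the immune list (504 and 171) as well. Adipoq alone was 76.2 in Y3, but lower in O3 (16.3) than in O1 (18.1). The part of any of these cells in the Rbp4 difference was not tested.

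Rdh10 (chr1:16105774-16133734) oxidizes retinol to retinal. Its normalized count in epithelium ran from 1.72 to 3.75 with a median of 3.04. The stromal values were 0.817 in O1, 1.19 in O2, 5.62 in O3, 0.722 in Y1 and 1.34 in Y3, so that O3 stood above every epithelial sample and the other 4 stood below every one. The difference of 0.57 on the log2 scale (SE 0.44, 95% interval -0.35 to 1.5) was not called (adjusted p = 0.281). Without mouse O3 it was 1.49 (SE 0.38, adjusted p = 0.00239) and was called. DESeq2 gave Rdh10 no adjusted p between the layers. The O3 stroma was also the highest of the 5 in the immune list (5 genes, Ptprc, Cd74 and others), at 504 against 123 to 171 in the others. It was the highest in the fibroblast (1031) and endothelium (99.8) lists too, and the lowest in the skeletal muscle list (35647). The part of these differences in its Rdh10 value was not tested.

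Dhrs9 (chr2:69380445-69404533) is a short-chain dehydrogenase that can oxidize retinol. It was abundant in epithelium, with normalized counts from 46.5 to 83.1 and a median of 69.4. Stroma had 0.408 in O1, 1.03 in O2, 0.765 in O3, 2.68 in Y1 and 3.66 in Y3. Every epithelial sample was more than 10 times higher than every stromal one, and the log2 difference was 5.28 (SE 0.42, adjusted p = 5.55e-09).

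Crabp1 and Crabp2 encode paralogous binding proteins for retinoic acid. They differed in level by far in epithelium, while both were low in stroma. Crabp2 (chr3:87948666-87953376), which is known to hand the acid to the receptors, had the largest difference of the 8 genes tested. Its normalized count in epithelium ran from 53.0 to 143.6 with a median of 94.0. The stromal values were 0 in O1, where 3 counts would be 0.175, and 0.288 in O2, 0.459 in O3, 0.671 in Y1 and 0.433 in Y3. The log2 difference was 7.87 (SE 0.46, adjusted p = 3.84e-11). Keratinocyte markers in stroma summed to 56.4 in O1, 462 in O2, 252 in O3, 78.3 in Y1 and 48.0 in Y3, and the part of such cells in the stromal Crabp2 and Dhrs9 counts was not tested. Crabp1 (chr9:54764748-54773110) had 0 to 14 counts per sample in epithelium, or 0 to 0.424 normalized counts, and 0 to 22 counts in stroma. Its highest stromal value was 1.28 in O1 and the other stromal samples were at 0 to 0.310. With counts this low it did not pass the filter, and the main fit did not test it between the layers.

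Cyp26b1 (chr6:84571414-84593908), the enzyme that removes retinoic acid by hydroxylation, was also higher in epithelium. Its normalized count there ran from 15.8 to 42.5 with a median of 20.8. In stroma it was 2.86 in O1, 1.27 in O2, 5.47 in O3, 1.08 in Y1 and 1.58 in Y3. The layers did not overlap, and the log2 difference was 3.18 (SE 0.37, adjusted p = 5.50e-07). Mouse O3 set part of its size, and without that mouse it was 3.77. The other Cyp26 enzymes were close to the limit of counting: Cyp26a1, whose window holds the DR5 repeat shown above, had 1 count over the 9 epithelial samples and 29 over the 5 stromal ones. Cyp26c1 had 4 and 33 counts, and neither passed the filter.

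The receptor genes split between the layers. Rarg (chr15:102234938-102257517), the RAR known as the main form of skin keratinocytes, ran from 57.8 to 88.4 normalized counts in epithelium with a median of 73.5. Stroma had 10.5 in O1, 14.8 in O2, 10.6 in O3, 13.9 in Y1 and 13.4 in Y3. No sample overlapped, and the difference of 2.55 on the log2 scale had the smallest error of the 8 genes (SE 0.16, adjusted p = 6.23e-11). Rara (chr11:98927818-98974942), the most widely expressed RAR, ran from 4.15 to 5.51 in epithelium with a median of 4.97. In stroma it was 8.93 in O1, 16.4 in O2, 22.3 in O3, 12.1 in Y1 and 12.5 in Y3, all above epithelium. Its log2 difference was -1.58 (SE 0.21, adjusted p = 1.60e-06).

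Rarb (chr14:16430839-16819156, minus strand) is the RAR gene known to be switched on by retinoic acid itself through the DR5 repeat shown above. Its normalized count ran from 0.692 to 4.58 in epithelium with a median of 1.38, and it rested on 2 to 54 counts per sample. The stromal values were 5.78 in O1, 4.19 in O2, 9.83 in O3, 5.01 in Y1 and 5.32 in Y3. YF5, at 11 counts, was the only epithelial sample above any stromal one. The log2 difference was -1.96 (SE 0.36, adjusted p = 0.000102). Rarb shares 1793 of its 5265 exon bases with Top2b on the opposite strand, and whether strand was used in counting is not given, so reads there cannot be assigned with certainty. Top2b itself was higher in epithelium (52.7 to 79.1 normalized counts) than in stroma (26.3 to 46.9), with a log2 difference of 1.09 (SE 0.17, adjusted p = 1.15e-05). The share of Rarb counts that lies in the shared bases was not measured.

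**Figure D2:**
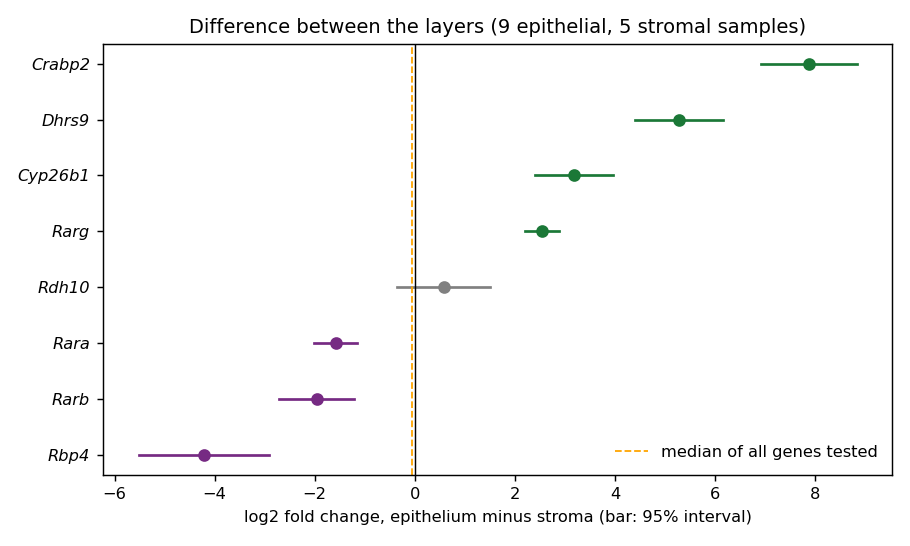
Log2 fold change (epithelium minus stroma, 9 against 5 samples) of the 8 genes tested, with 95% intervals from the edgeR fit. Green genes were called higher in epithelium, purple genes higher in stroma, and Rdh10, in gray, was not called, and the dashed line is the median of all genes tested at -0.051.

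Levels of different genes can be set side by side only per length, here as normalized counts per kilobase of annotated exon. In epithelium the means were 67.7 ± 22.5 (SD, n = 9) for Crabp2, 17.3 ± 2.25 for Rarg, 15.6 ± 2.61 for Dhrs9 and 4.26 ± 1.51 for Cyp26b1. They were 1.10 ± 0.109 for Rara, 0.702 ± 0.144 for Rdh10, 0.321 ± 0.221 for Rarb, 0.282 ± 0.196 for Crabp1 and 0.163 ± 0.184 for Rbp4. Neighbours in this order were compared by an exact paired sign permutation test (two-sided), with p-values adjusted over 8 pairs. In 5 pairs the gene placed higher was higher in all 9 samples (adjusted p = 0.00625 for each, exact permutation test). Rarg and Dhrs9 did not differ beyond their spread (Rarg higher in 6 of 9 samples, adjusted p = 0.0885, exact permutation test), nor did Rarb and Crabp1 (0.543) or Crabp1 and Rbp4 (0.125).

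In stroma the order was another one and much flatter. The means per kilobase were 3.49 ± 2.92 (SD, n = 5) for Rbp4, 3.31 ± 1.18 for Rara, 2.97 ± 0.461 for Rarg and 1.14 ± 0.419 for Rarb. The other 5 genes, Crabp2 among them, lay between 0.280 and 0.467. With 5 samples the smallest p this test allows is 0.0625, so no neighbouring pair could pass. Rarg was above Rarb in 5 of 5 samples, and Rbp4 was above Rara in only 2 of 5.

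The receptors can also be described as shares of their sum per kilobase, which was 14.7 to 22.0 in epithelium and 5.61 to 9.48 in stroma. Rarg made up 90.3 to 94.2% of it in the 9 epithelial samples, Rara 4.57 to 6.95% and Rarb 0.846 to 4.41%. In stroma Rarg made up 26.3 to 46.6%, Rara 36.5 to 54.0% and Rarb 9.91 to 19.7%. The share of Rarg was lowest in the O3 stroma and lay between 43.3 and 46.6% in the other 4. These shares combine the values already compared above and are given without a test.

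**Figure D3:**
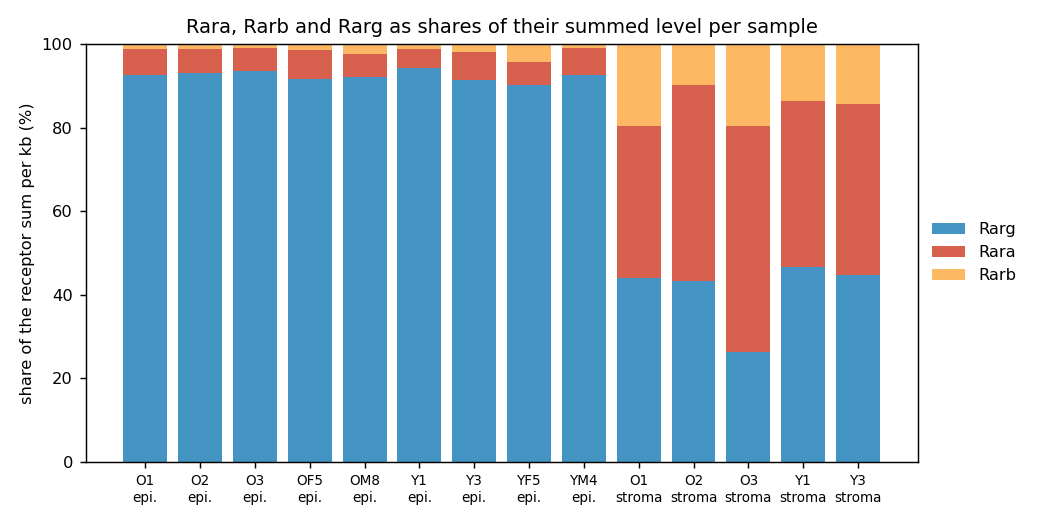
Shares (%) of Rarg, Rara and Rarb in their summed normalized count per kilobase, with 1 bar for each of the 14 samples named by mouse and layer. Rarg fills 90.3% or more of every epithelial bar and 46.6% or less of every stromal bar.

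Within epithelium, the 4 mice whose code has 2 letters were compared with the other 5 because they stood apart in depth, a comparison added after the data were seen. In the fit that also holds age, 14% of 15859 genes were called, 7.3% lower and 6.73% higher in the 4 mice. Crabp2 was lower in them. It was 58.2 in OF5, 53.0 in OM8, 72.5 in YF5 and 65.4 in YM4, against 94.0 to 143.6 in the others, with a log2 difference of -0.68 (SE 0.14, adjusted p = 0.00366). Cyp26b1 was higher, at 22.7 to 42.5 against 15.8 to 20.8 (log2 difference 0.78, SE 0.16, adjusted p = 0.00447). The other 5 genes tested were not called. Dhrs9 was at 46.5 to 62.5 in the 4 mice against 69.4 to 83.1 in the others, with a log2 difference of -0.20 (SE 0.13, adjusted p = 0.303). Rarg differed by -0.0067 (SE 0.13). Each fit scaled only the samples it held, here the 9 epithelial ones. The printed values are scaled over the 14 samples, so the differences from the fit need not match them. The form of the code, the depth, the ribosomal RNA share and the keratinocyte marker sum moved together in these samples and cannot be told apart.

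Old and young epithelium were compared in a fit that also held the code form. No age difference was called in any of the 7 genes tested, and 0 of 7 reached an unadjusted p under 0.05 in edgeR. DESeq2 also called none of them, and gave Rarb no adjusted p. Over all 15859 genes 0.0126% were called, so a call was rare for any gene. Rbp4 and Crabp1 were too low in epithelium to be tested.

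Crabp2 and Cyp26b1 came closest. Crabp2 was 102.8 in O1, 115.6 in O2, 94.0 in O3, 58.2 in OF5 and 53.0 in OM8, and among young mice it was 143.6 in Y1, 100.5 in Y3, 72.5 in YF5 and 65.4 in YM4. The ages overlapped, and the log2 difference, aged minus young, was -0.28 (SE 0.13, 95% interval -0.56 to 0.0017, adjusted p = 0.9996). Cyp26b1 was 15.8 in O1, 20.4 in O2, 16.7 in O3, 22.7 in OF5 and 23.6 in OM8, against 17.5 in Y1, 20.8 in Y3, 42.5 in YF5 and 25.3 in YM4. YF5 stood well above the rest, and the log2 difference was -0.29 (SE 0.16, 95% interval -0.62 to 0.034, adjusted p = 0.9996). Rarg differed by 0.036 (95% interval -0.23 to 0.31), Dhrs9 by 0.020 (-0.24 to 0.28), Rara by 0.12 (-0.32 to 0.55), Rdh10 by -0.0046 (-0.59 to 0.58) and Rarb by -0.53 (-1.34 to 0.29) on the log2 scale. The intervals of Rarg and Dhrs9 leave room for changes of up to 0.31 and 0.28 on the log2 scale, and that of Rarb for larger ones.

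In stroma, with 3 aged and 2 young samples, none of the 8 genes tested was called and 0 of 8 had an unadjusted p under 0.05 in edgeR. DESeq2 called none of the 8, and over all 21323 genes edgeR called 0, 776 having an unadjusted p under 0.05. Dhrs9 was 0.408, 1.03 and 0.765 in the aged O1, O2 and O3 and 2.68 and 3.66 in the young Y1 and Y3. The ages did not overlap, as in 20.6% of all genes tested, and the log2 difference, aged minus young, was -2.10 (SE 1.06, 95% interval -4.47 to 0.27, adjusted p = 0.99996). In the same comparison the 9 keratinocyte markers had a median log2 difference of 2.29, with 5 of 9 at an unadjusted p under 0.05 and 0 called, and their part in the Dhrs9 values was not tested.

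The age effect of Dhrs9 was then compared between the layers in the 5 mice with both. The interaction was 2.25 on the log2 scale (SE 0.41, unadjusted p = 0.00017), with an adjusted p of 0.300 in edgeR, and was not called. edgeR called 0 of 22771 genes, 979 having an unadjusted p under 0.05, among them 1 of the 9 members, Dhrs9. DESeq2 called 62 of the 22771 genes, with Dhrs9 among them (2.19, adjusted p = 0.00054). The edgeR fit without a filter on low counts called 98 of 49457, again with Dhrs9 among them (2.01, adjusted p = 0.00139). With mouse as a block the interaction was 2.29 (adjusted p = 0.775), and the call thus depended on the test and the filter. The stromal side rested on 7 to 93 counts per sample.

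**Figure D4:**
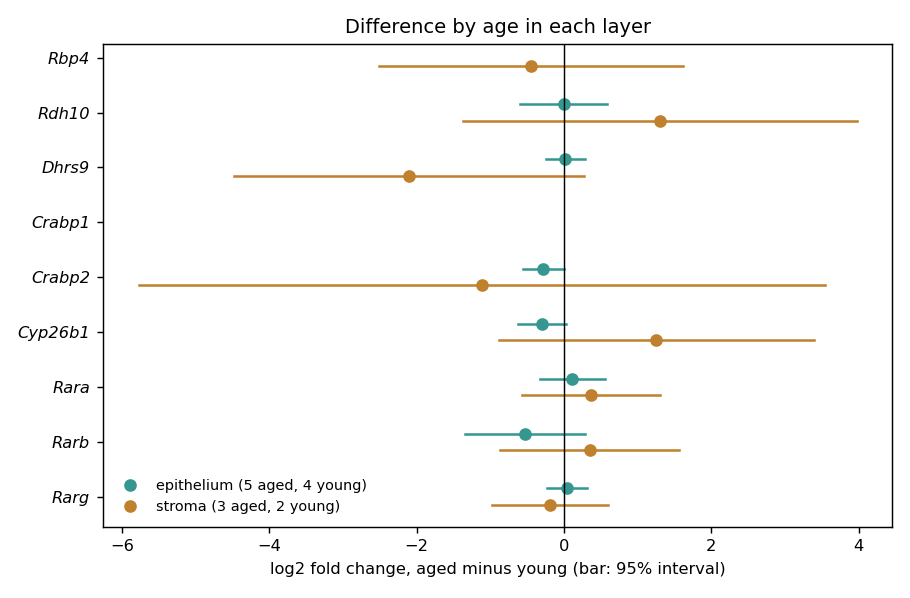
Log2 fold change by age (aged minus young) in epithelium (5 against 4 samples, in a fit that also held the code form) and in stroma (3 against 2 samples), with 95% intervals from edgeR. Every interval crosses 0, the stromal ones are wide, and genes that did not pass the filter of a comparison have no point.

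Other genes of the pathway were followed in 5 lists of 50 genes. Of these, 37 passed the filter, 13 were called higher in epithelium, beside 26.1% of all genes tested, and 13 higher in stroma, beside 30.1%, and their median log2 difference was -0.36, beside -0.051 over all genes tested. By age, 0 of 36 tested were called in epithelium and 0 of 43 in stroma, by edgeR or DESeq2, which gave an adjusted p for 29 of the 36, and 0 of either had an unadjusted p under 0.05 in edgeR.

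Genes of uptake and storage were mostly near the limit of counting (1 higher in epithelium, 2 higher in stroma, 9 of 11 tested, median -0.83). Rbp2, a cell retinol-binding protein known from absorptive cells of the gut, was at 66.8 ± 11.6 normalized counts in the 9 epithelial samples (SD, as for the values that follow) and at 0.726 ± 0.977 in the 5 stromal ones. Its log2 difference was 6.46 (SE 0.59, adjusted p = 1.13e-07), and without mouse O2 it was 7.61. DESeq2 gave it no adjusted p. Stra6, the membrane receptor for Rbp4, had 0.569 ± 0.917 in epithelium and 1.51 ± 0.71 in stroma and was not called (adjusted p = 0.0673), but it was called with mouse as a block (-1.93, adjusted p = 0.0426), without mouse O3 (-1.78) and without mouse YF5 (-2.17). Dgat1, which can esterify retinol, was called higher in stroma (-1.24, adjusted p = 0.0227), but not with the block (-1.08, adjusted p = 0.143), nor without mouse O1 (-1.0), Y1 (-1.16) or Y3 (-1.06).

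Of the enzymes between retinol and retinal, 10 of 15 were tested, 6 were called higher in epithelium and 1 higher in stroma (median 1.05). Adh7, a class IV alcohol dehydrogenase of upper digestive epithelia, had 107 ± 35.9 normalized counts in epithelium and 0.330 ± 0.229 in stroma, a log2 difference of 8.32 (SE 0.48, adjusted p = 3.97e-11). Rdh12, a retinal reductase, had 64.0 ± 4.68 and 1.18 ± 0.718 (5.77, SE 0.33, adjusted p = 1.40e-11). Sdr16c5, a retinol dehydrogenase of the epidermis, differed by 3.95 (SE 0.56), and by 4.65 without mouse O1. Rdh11 (2.12) and Rdh13 (1.27) were higher in epithelium as well, whereas Rdh14 was higher in stroma (-1.64). Dhrs3, which reduces retinal back to retinol, was called at 0.82 (adjusted p = 0.0203), but not without mouse O1 (0.64), O2 (0.74), Y1 (0.63) or Y3 (0.69), nor once every sample had to reach 10 counts (0.51).

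The 3 enzymes that make retinoic acid from retinal were all called higher in stroma. Aldh1a1 had 20.1 ± 6.95 normalized counts in epithelium and 88.9 ± 21.1 in stroma (-2.11, SE 0.22, adjusted p = 9.51e-08). Aldh1a3 had 0.431 ± 0.295 and 4.15 ± 3.81 (-3.11, SE 0.56, adjusted p = 8.01e-05), and -2.23 without mouse O3. Aldh1a2 had 4.32 ± 1.58 and 9.02 ± 4.30 (-1.07, adjusted p = 0.00672), and was not called without mouse Y1 (-0.76, adjusted p = 0.0711). The other 3 genes of this list did not pass the filter.

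All 11 receptor partners and coregulators were tested, with 5 called higher in epithelium and 4 higher in stroma (median 0.22). Rxra, the most abundant RXR per kilobase in both layers, had 56.7 ± 11.2 and 48.9 ± 8.22 normalized counts and was not called (0.22, 95% interval -0.12 to 0.57, adjusted p = 0.264), but it was with mouse as a block (0.43, adjusted p = 0.0306). Rxrb was not called (-0.40, adjusted p = 0.123), but it was without mouse O1 (-0.58). Rxrg, an RXR known from skeletal muscle, was higher in stroma (-3.82, SE 0.66, adjusted p = 5.66e-05, and -4.91 without mouse O1). Fabp5, a fatty acid carrier that can bring retinoic acid to PPARδ, had 682 ± 177 and 8.57 ± 8.04 (6.31, SE 0.58, adjusted p = 2.17e-08, and 6.94 without mouse O2). Ppard itself differed by 0.50, and by 0.18, no longer called, once every sample had to reach 10 counts. The coactivators Ncoa1 (0.78), Ncoa2 (0.98) and Ncoa3 (1.43) were each higher in epithelium, and the corepressor Nrip1 was higher in stroma (-0.59), though not called without a filter (-0.38). The corepressor Ncor1 was called at -0.36 (adjusted p = 0.0335), but not with the block (-0.30, adjusted p = 0.0954), nor without a filter (-0.16), with protein-coding genes only (-0.27), in the mice with both layers (-0.30), with the code form as covariate (-0.31), or without mouse O2 (-0.40), O3 (-0.33), Y1 (-0.35) or YM4 (-0.33).

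Of 7 genes known to respond to retinoic acid in other cells, 4 were tested, 1 was called higher in epithelium and 3 higher in stroma (median -1.63). Rarres1 was higher in epithelium (2.47, SE 0.64, adjusted p = 0.00251, and 3.44 without mouse Y3). Rarres2, which encodes the adipokine chemerin, was higher in stroma (-2.84, SE 0.25), as was the transglutaminase gene Tgm2 (-2.28, SE 0.16), at 125 ± 11.7 against 25.9 ± 5.42 normalized counts. Hic1 was called higher in stroma (-0.98, adjusted p = 0.0427), but not with the block (-1.20, adjusted p = 0.073), with DESeq2 (-0.95), without a filter (-0.78), with protein-coding genes only (-0.88), with age as covariate (adjusted p = 0.051), or without mouse O2 (-0.70), O3 (-0.85), OM8 (-0.94), Y1 (-0.89) or Y3 (-0.96).

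**Figure D5:**
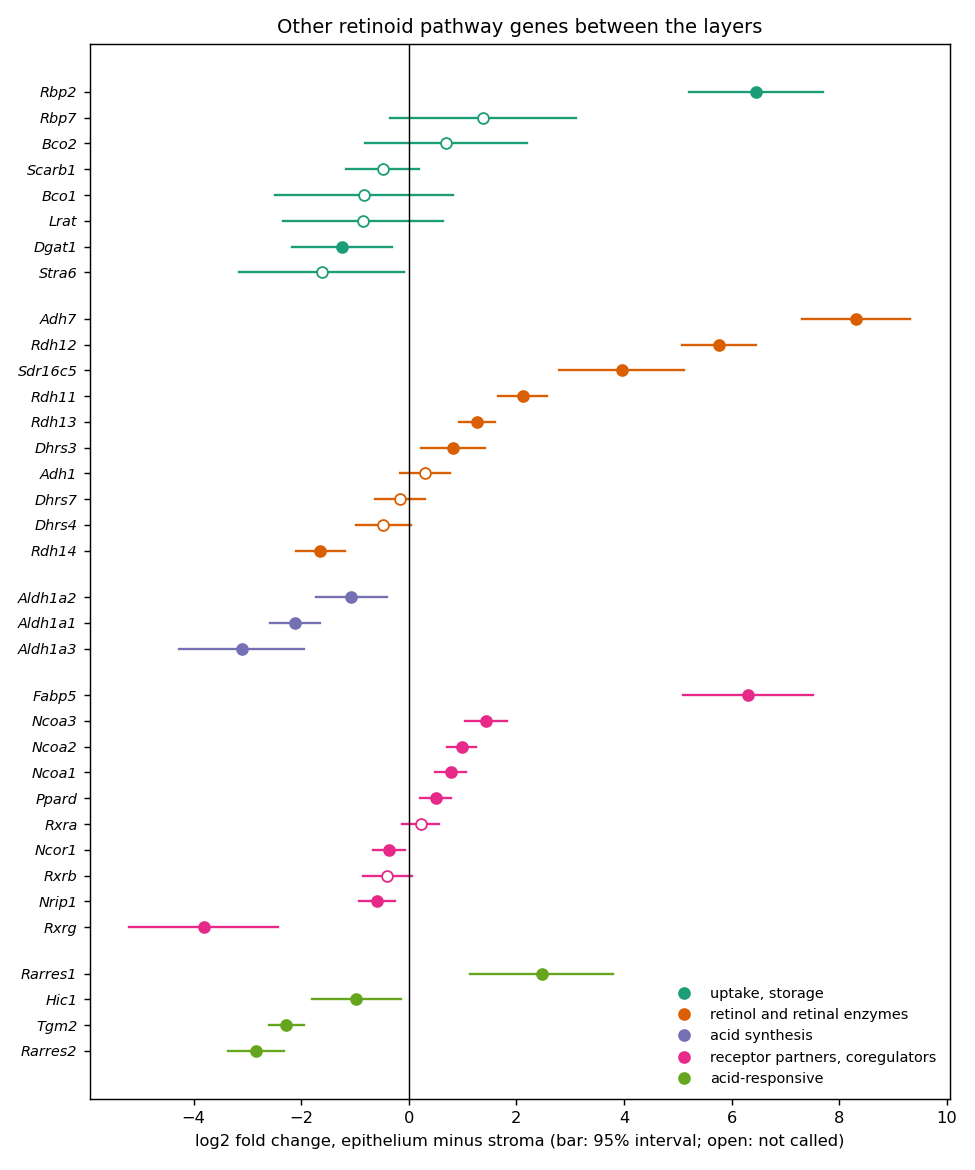
Log2 fold change (epithelium minus stroma) of 35 of the 37 other retinoid pathway genes tested, with 95% intervals from edgeR, grouped and coloured by list. Filled points were called and open points were not. Adh7, Rbp2, Fabp5 and Rdh12 lie farthest to the right, and Rxrg and Aldh1a3 farthest to the left.

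For each of the 8 genes tested, the 3 protein-coding genes with the most similar pattern over the 14 samples were found among 8859 candidates. Likeness was the root mean square difference of log2 normalized counts after each gene was centred, so that a smaller value is closer. The layers dominate this measure, and the samples share depth and mouse. Crabp2 was nearest to the protease inhibitor gene Slpi (0.292), the kallikrein gene Klk13 (0.317) and the epithelial transcription factor gene Ehf (0.346). Dhrs9 was nearest to Zfp185 (0.300), the peptide transporter gene Slc15a1 (0.328) and Mpzl2 (0.334). Cyp26b1 was nearest to Hip1r (0.374), Ssh3 (0.397) and Shb (0.40).

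Among the receptors, Rarg was nearest to the sphingomyelinase gene Smpd1 (0.163), Il17rc (0.179) and Kctd5 (0.205). Rara was nearest to Ccm2 (0.173), 2810006K23Rik (0.207) and the intermediate filament gene Vim (0.214). Rarb was nearest to Apbb1ip (0.270), Gtf3a (0.318) and Map1s (0.328). Rdh10 was nearest to Gtf2f2 (0.331), Pias4 (0.332) and Ly6e (0.338). Rbp4 had the loosest neighbours, the ceruloplasmin gene Cp (0.460), Grb10 (0.496) and Sulf1 (0.530).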

How the data were processed

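Bulk RNA-Seq of peeled epithelium and stroma from 9 mice gave 14 samples, whose layer, age and mouse come from their labels. The authors deposited, for every sample, raw read counts by gene symbol that had not been normalized. Libraries were prepared from mRNA selected with oligo(dT). Rsubread was used by the authors for alignment to GRCm38.p6, and featureCounts for counting. The annotation release, the use of strand and the handling of multi-matching reads are not given in the sources used here. Gene positions, types and exon lengths came from GENCODE M21 of the same build, which holds 53292 of the 55291 symbols.

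The main test was the quasi-likelihood test of edgeR 4.0.16 under R 4.3.3 (TMM, filterByExpr with a minimum count of 10, robust glmQLFit), and p-values were adjusted over all genes tested by the Benjamini-Hochberg method at 0.05. Layers were compared over 14 samples without a covariate, age within each layer, and the interaction in the 5 mice with both layers. SE was the log2 fold change divided by the square root of F. Layers of 1 mouse share its code and are paired. Their deviations from the group means had correlations of 0.042 to 0.141 across genes. The 2 young values are equal by construction. With so few mice these correlations cannot show that the pairing can be ignored. Mouse as a block was an alternative. Numbered samples of a group are separate mice. The layer and interaction fits without a block took the layers of 1 mouse as separate samples, so their p-values leave out the pairing. Within a layer, p-values cover the spread between mice. Intervals and limits from 3 counts cover counting error and that spread only.

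The genes and pathway lists were chosen with earlier results of these data known. All 9 genes were named, as were the 3 most similar genes of each tested gene (0.5 added before log2, average log2 CPM of at least 2). The order test added 0.05 per kilobase. The other genes of the pathway lists named were chosen after their values were seen. The alternatives were DESeq2 1.42.0, no filter, at least 10 counts in every sample, upper quartile scaling, protein-coding genes only, other covariates or subsets of mice, and each mouse left out. The steps were run on simulated independent counts, with the same dispersion for every gene and no pairing of layers. That run does not cover the spread of the real samples. Protein sequences and windows of Crabp2 and Rdh10 were not analysed here. The values of 2 genes of the pathway lists, which are part of the counts and medians of those lists, are not reported here.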

Additional observations from a re-analysis of the deposited data

How the results depend on the processing

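Calls of the 8 genes between the layers kept their direction and side of the threshold under DESeq2 (which gave no adjusted p for Rdh10), no filter, upper quartile scaling, protein-coding genes only, the covariates and the mice with both layers alone, and the call of Rdh10 alone changed when a mouse (O3) was left out. With the replicate block for mouse, 4 genes were called higher in epithelium and 3 higher in stroma, as without it. Of the pathway genes 14 and 11 were called, and the changed pathway calls are given beside those genes. Over all 16713 genes tested with the block, 4587 were called higher in epithelium and 4003 higher in stroma. Requiring at least 10 counts in every sample left 3 of the 9 genes and 19 pathway genes to test, of which 2 and 6 were called higher in epithelium and 1 and 9 higher in stroma. Over all 6711 genes tested under that rule, 2047 were called higher in epithelium and 2269 higher in stroma. Among the 9 genes, DESeq2 and the fit without a filter each called 1 interaction, that of Dhrs9. Over all genes they called 62 of 22771 and 98 of 49457. By age, none of the 9 genes or of the pathway genes was called under any alternative. Over all genes tested in epithelium, 28 of 15859 were called with DESeq2 and 36 of 46496 without a filter. In stroma these counts were 2 of 21323 and 26 of 45528. Differences near 0 changed sign. In epithelium Rdh10 was at 0.028 under DESeq2, 0.0041 with upper quartile scaling, 0.0045 with protein-coding genes and 0.15 in mice with a letter and a digit, and Dhrs9 was at -0.0080 without a filter and -0.12 in mice with 2 letters. Leaving out each mouse gave -0.018 to 0.098 for Dhrs9, -0.18 to 0.092 for Rdh10 and -0.045 to 0.14 for Rarg in epithelium, and -1.53 to 1.24 for Rbp4, -0.092 to 0.56 for Rarb and -0.071 to 1.79 for Rdh10 in stroma. The cause was not tested. Between 5 and 6 of the 8 neighbouring pairs of the order differed when a mouse was left out. Depth limits Crabp1 and Rbp4 in epithelium, and every gene in the 4 shallow samples.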
